A study of Mus musculus with 9 samples.

Results

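The 43 genes described here encode the glycoproteins, proteoglycans and crosslinking enzymes of the extracellular matrix outside the fibrillar collagens. They were chosen by gene name, with earlier results of these data known. All 43 were found among 54449 genes in RNA of sorted mouse lung cells. Of the 43, 41 reached a mean of at least 5 normalized counts over all libraries and were tested. The other 2, fibromodulin (Fmod) and tenascin-X (Tnxb), lay under that level. Bulk RNA was sequenced from 9 libraries of C57BL/6 mice, 3 in each of 3 groups, and each library pooled cells from 3 to 4 mice. Siglec-F high and Siglec-F int libraries came from mice given PyMT tumour cells, a mouse mammary tumour line, in 200 µl of saline by tail vein, a model of lung metastasis by injection and not by spread from a primary tumour. The labels call these cells eosinophils of the metastatic lung and divide them by the amount of surface Siglec-F, a lectin of mouse eosinophils and alveolar macrophages. Naive libraries came from mice given saline alone and carry no Siglec-F division. Cells of all groups were taken from the whole lung by flow cytometry at a stated purity above 98%, with an RNA integrity number above 6.3. The comparison with naive asks what the cells of tumour-bearing lungs express differently, and the comparison of the Siglec-F groups asks whether they differ from each other.

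The extracellular matrix is a network of secreted proteins that cells bind through integrins and proteoglycan receptors. Fibronectin and thrombospondins form the early matrix of a wound, laminins and nidogens build basement membranes, and elastin is laid down on fibrillin microfibrils with the help of fibulins. Lysyl oxidases then crosslink collagen and elastin, and in the lung fibroblasts are the main source of most of these proteins.

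Promoters are shown for Postn and Spp1, which had the largest fold changes of Siglec-F high over naive by limma on the deposited values, for the latent TGF-β binding protein that rose in both groups (Ltbp1), and for both fibulins that were lower (Fbln1 and Fbln5). Each line gives the 250 bases before the start of transcription, 5′ to 3′ on the gene's strand, from RefSeq on GRCm38.p6. The windows are chr3:54360857-54361106 (plus strand) for Postn, chr5:104434861-104435110 (plus) for Spp1 and chr17:75005279-75005528 (plus) for Ltbp1. Those of the fibulins are chr15:85205699-85205948 (plus) for Fbln1 and chr12:101819120-101819369 (minus) for Fbln5. Capitals mark matches, on either strand, to any of 5 motifs: the TATA box (letters TATAAA), the AP-1 site (letters TGANTCA), the cAMP response element (letters TGACGTCA), the E-box (letters CACGTG) and the RUNX site (letters AACCACA).
Postn: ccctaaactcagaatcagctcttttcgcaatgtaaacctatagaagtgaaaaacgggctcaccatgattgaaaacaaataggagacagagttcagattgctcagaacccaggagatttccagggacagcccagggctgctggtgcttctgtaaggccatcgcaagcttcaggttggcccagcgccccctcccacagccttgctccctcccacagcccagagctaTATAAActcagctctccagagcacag
Spp1: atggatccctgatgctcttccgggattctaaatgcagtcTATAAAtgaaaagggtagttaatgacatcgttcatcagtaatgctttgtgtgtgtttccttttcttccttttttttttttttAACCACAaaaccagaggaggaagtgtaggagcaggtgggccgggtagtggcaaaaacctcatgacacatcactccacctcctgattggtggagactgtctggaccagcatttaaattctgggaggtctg
Ltbp1: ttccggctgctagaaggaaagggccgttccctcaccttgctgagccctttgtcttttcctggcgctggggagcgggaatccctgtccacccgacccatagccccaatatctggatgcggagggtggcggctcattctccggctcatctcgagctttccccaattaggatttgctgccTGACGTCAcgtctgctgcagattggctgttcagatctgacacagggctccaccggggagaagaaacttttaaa
Fbln1: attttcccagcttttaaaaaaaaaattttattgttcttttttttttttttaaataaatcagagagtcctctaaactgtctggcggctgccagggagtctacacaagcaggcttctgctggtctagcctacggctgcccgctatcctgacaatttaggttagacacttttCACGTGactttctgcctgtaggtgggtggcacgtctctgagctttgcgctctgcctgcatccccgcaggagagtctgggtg
Fbln5: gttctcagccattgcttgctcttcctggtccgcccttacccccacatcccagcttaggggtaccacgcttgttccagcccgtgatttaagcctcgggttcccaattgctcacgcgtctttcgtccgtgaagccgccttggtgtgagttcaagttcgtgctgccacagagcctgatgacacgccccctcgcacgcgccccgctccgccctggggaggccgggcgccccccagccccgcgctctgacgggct

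In Postn the TATA box starts 26 bases before the start site. The Spp1 window holds a TATA box 211 bases and a RUNX site 129 bases before it, the Ltbp1 window a cAMP response element 73 bases before it, and the Fbln1 window an E-box 81 bases before it. No motif was found in the Fbln5 window. Of 32851 mouse promoter windows of this length, the TATA box stood in 12.4%, the AP-1 site in 6.75%, the E-box in 6.02%, the RUNX site in 4.4% and the cAMP response element in 1.55%. The matrix genes matched 37 windows of 28 genes, of which 6 held a TATA box, 2 each an AP-1 site, an E-box or a RUNX site, and 1 the cAMP response element. A match describes letters only. Dcn, Eln, Fn1, Lama4, Lamc1, Lox, Loxl1, Loxl2, Lum, Mfap4, Mfap5, Mgp, Nid2, Sparcl1 and Thbs1 had no window in this set. Their promoters were not searched.

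The libraries held 4941900 to 7171066 reads in Siglec-F high, 7517513 to 12495639 in Siglec-F int and 2205949 to 5529406 in naive, recovered from the normalized counts. The labels call all of them eosinophils, but the defining eosinophil genes were scarce. The 10 eosinophil markers summed to 516 to 1154 normalized counts in Siglec-F high, 189.5 to 419 in Siglec-F int and 268 to 742 in naive. Ear2 alone averaged 408.7, 170.15 and 309.3 of mean sums of 828, 333.7 and 503.2, in that order. The gene of the sorting marker, Siglecf, averaged only 11.9, 12.8 and 16.02. Its log2 difference, Siglec-F high minus Siglec-F int, was −0.21 (95% confidence interval −2.12 to 1.698). Ccr3 and Prg3 were at 0 in every naive library, and none of the 6 markers that could be tested differed by limma in either comparison with naive, also at an unadjusted p under 0.05. The 10 pigment cell markers, such as Pmel, summed to 212 to 991 in Siglec-F high and 348 to 668 in Siglec-F int, against 59260 to 68184 in naive. All 10 were lower in both comparisons (adjusted p up to 0.00662 in Siglec-F high and 0.0102 in Siglec-F int). The 14 fibroblast markers summed to 20572 to 28404 in Siglec-F high and 10471 to 21542 in Siglec-F int, against 6255 to 7725 in naive. Of the 13 tested, limma called 6 higher in Siglec-F high (14.7% of all genes) and 5 in Siglec-F int (12%), and none lower. The 6 were Pdgfra, Pdgfrb, Col1a1, Col3a1, Prrx1 and Twist2, and Col1a1 was not called in Siglec-F int. Thy1 lay below naive without overlap in both (log2 fold changes of −2.24 and −1.725, adjusted p = 0.0877 and 0.207 by limma). Tcf21 did so in Siglec-F int (−1.18). None of the 14 was at 0 in a whole group. The 12 macrophage and monocyte markers summed to 14029 to 22242 in Siglec-F high and 18641 to 75068 in Siglec-F int, against 7527 to 10899 in naive. Of these, 5 rose in Siglec-F high (Csf1r, Adgre1, Mrc1, Ccr2 and F13a1), against 14.7% of all genes. The same 5 with C1qc rose in Siglec-F int, against 12%, none fell, and none was at 0. Of 6 leukocyte markers, Ptprc and Fcer1g rose in both comparisons (14.7% and 12% of all genes), and the other 4 passed in neither. In Siglec-F high the log2 fold changes of those 4 were mixed, at −1.004 (Coro1a), −0.38 (Laptm5), 0.404 (Itgb2) and 0.613 (Tyrobp). Siglec-F int library 2 stood apart in its macrophage and monocyte markers, with the 75068, against 18641 and 21914 in the other Siglec-F int libraries. Siglec-F high library 1 stood apart with the GC content of the genes, as described with its values below. The mix of cells was not measured, and in bulk libraries fewer cells of a type and less RNA per cell cannot be told apart.

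Most matrix genes that changed were higher in the cells of tumour-bearing lungs than in naive cells. In Siglec-F high libraries 18 of the 41 genes rose, against a background of 14.7% of all 13642 genes tested, and 3 fell, against 16.6%. In Siglec-F int libraries 15 of 41 rose, against 12% of all genes, and 3 fell, against 10.3%. The calls are from limma at an adjusted p under 0.05 over all genes. The list was chosen with earlier results of these data known, so its excess over all genes is not independent support. In either direction, 21 matrix genes were called in Siglec-F high (31.3% of all genes) and 18 in Siglec-F int (22.3%). At an unadjusted p under 0.05 there were 23 (45.1% of all genes) and 24 (36.8%). On the recovered reads, edgeR called 22 of the 41 in Siglec-F high (3550 of all 13642 genes) and 20 in Siglec-F int (2875). DESeq2 called 22 in each (4964 of all genes in Siglec-F high and 4018 in Siglec-F int). The largest rises by limma on the deposited values were those of periostin (Postn), osteopontin (Spp1) and decorin (Dcn). With a trend over GC content and length removed, the largest were those of Spp1 (4.50), Ltbp1 (4.17) and Tnc (4.10) in Siglec-F high and of Spp1 (4.06), Tgfbi (3.79) and Ltbp1 (3.59) in Siglec-F int. The falls were those of fibulin-1 (Fbln1), fibulin-5 (Fbln5) and Emilin1, in both groups. Emilin1 did not keep its direction in Siglec-F high with that trend removed, and its Siglec-F int call was lost in 14 alternatives. The median log2 fold change of the 41 genes was 1.45 in Siglec-F high and 1.05 in Siglec-F int, against −0.11 and −0.02 for all genes. All log2 fold changes are on the scale of log2(normalized count + 1), which understates changes of low genes, and both comparisons share the same naive libraries.

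In Siglec-F high, 20 of the 41 genes lay above naive with no overlap between the libraries (20.2% of all genes) and 4 lay below (26.3%). In Siglec-F int, 21 lay above without overlap (23.3%) and 6 below (27.6%). Without the pair of libraries that stand apart, Siglec-F high 1 and Siglec-F int 2, limma called 28 genes (24 higher, 4 lower) in Siglec-F high and 26 (21 higher, 5 lower) in Siglec-F int. That pair was picked from these same data, and Siglec-F int 2 was low in most of these genes. The share of all genes called without the pair is not given here, so these counts carry no weight as support. Fibroblast, pigment cell, and macrophage and monocyte markers also differed between these groups, as given above. Of 8 smooth muscle and pericyte markers limma called only Acta2, higher in Siglec-F high, and of 8 endothelial markers none in either comparison. Of 7 epithelial and mammary tumour markers tested it called only Krt19, lower in Siglec-F high. The part of any of these cells in the matrix gene changes was not tested.

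**Figure D1:**
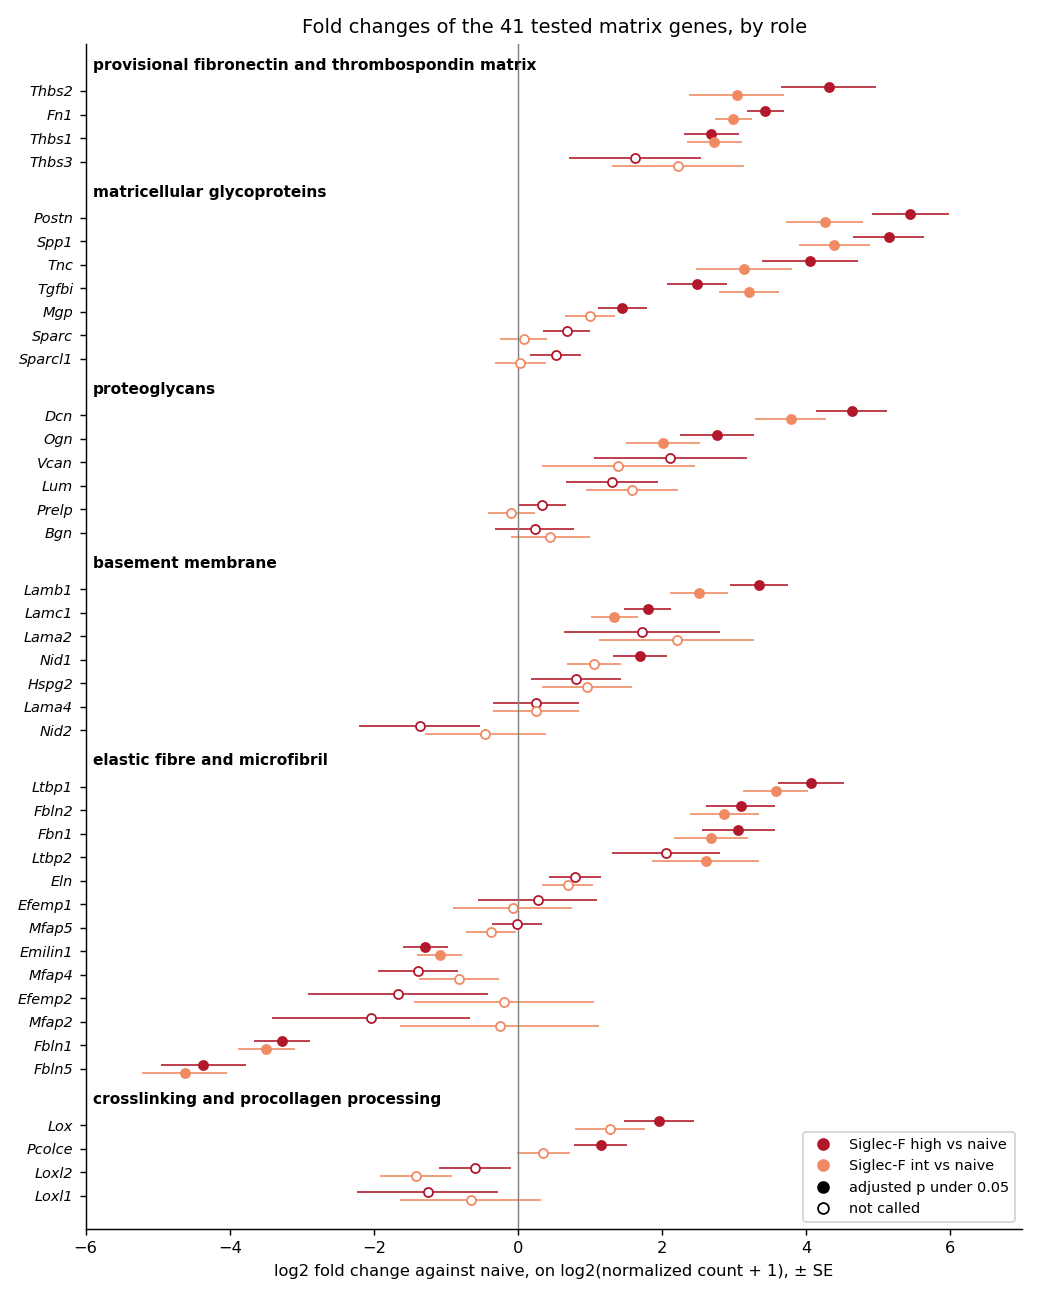
Log2 fold change (x axis, ± SE from limma, 3 libraries a group) of the 41 tested matrix genes against naive, grouped by role, for Siglec-F high (dark red) and Siglec-F int (orange); filled points passed an adjusted p under 0.05. Values run from −4.37 to 5.44 in Siglec-F high and from −4.63 to 4.39 in Siglec-F int, and the elastic fibre group holds both rises and falls.

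The summed level of all 43 genes put every tumour-bearing library above every naive one. It was 73833, 57839 and 60779 normalized counts in Siglec-F high and 53693, 35415 and 50969 in Siglec-F int, against 17940.3, 19051 and 18964 in naive. As a share of all reads in a library this was 1.36%, 1.35% and 1.38% in Siglec-F high and 1.33%, 0.727% and 1.29% in Siglec-F int. In naive it was 0.351%, 0.332% and 0.411%. The fibroblast marker sum followed the same order of groups and was also lowest, among the 6 tumour-bearing libraries, in Siglec-F int library 2. That list itself holds matrix genes, namely Col1a1, Col1a2, Col3a1 and Dpt. In Siglec-F high, Col3a1 alone averaged 16878 normalized counts of a mean sum of 24000. The sum is thus no measure of fibroblasts apart from matrix genes.

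**Figure D2:**
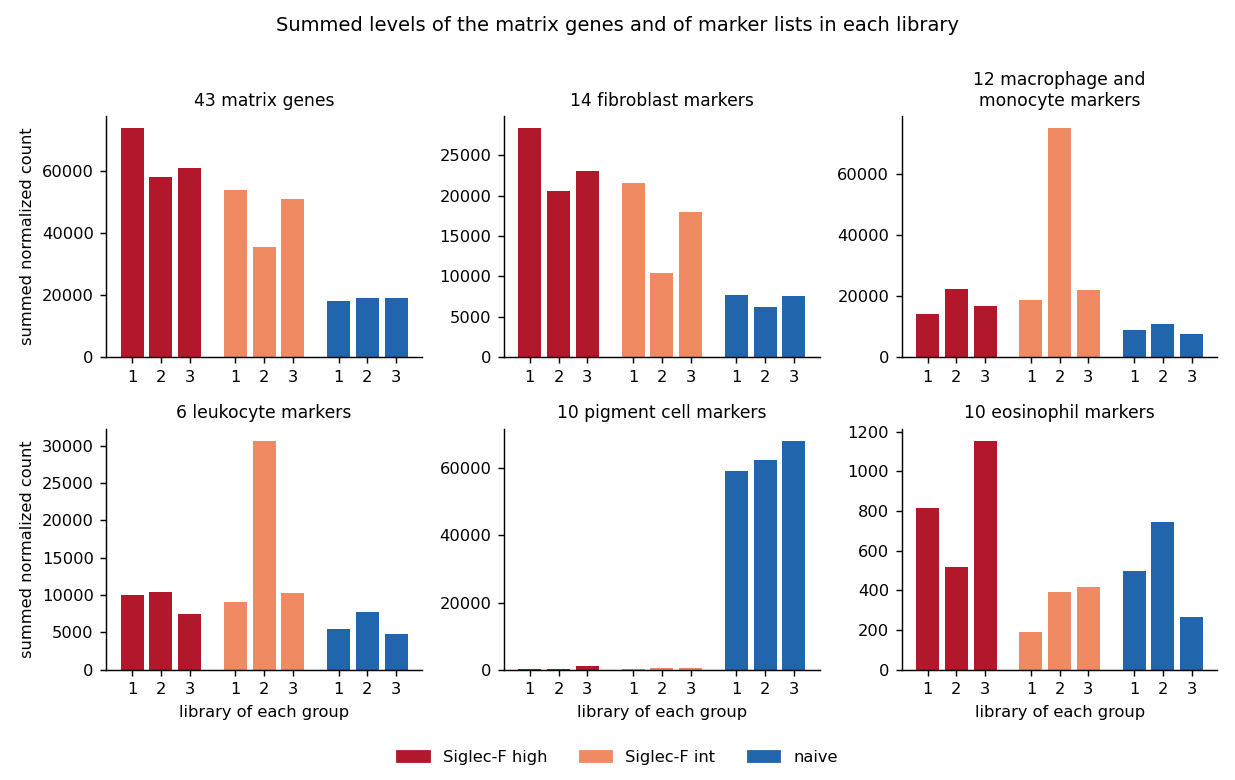
Summed normalized counts (y axes, linear from 0, each panel with its own scale) of the 43 matrix genes and of 5 marker lists in each of the 9 libraries, by group. The matrix genes and fibroblast markers were lowest in naive, pigment cell markers were near 0 outside naive, and Siglec-F int library 2 had the highest macrophage and leukocyte sums.

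Of the 4 genes of the fibronectin and thrombospondin matrix, 3 rose in both comparisons (14.7% and 12% of all genes) and none fell (16.6% and 10.3%). Positions here and below are on GRCm38. Fibronectin (Fn1; ENSMUSG00000026193.15, chromosome 1, 71585520 to 71653200), the adhesive glycoprotein that integrins bind in early wound matrix, had 12435, 9469.7 and 9518 normalized counts in Siglec-F high, 9083, 6176 and 7947 in Siglec-F int and 890.0, 989.9 and 1014 in naive. All tumour-bearing libraries lay far above all naive ones. Its log2 fold change was 3.43 ± 0.26 (SE) in Siglec-F high (adjusted p = 9.79e-05) and 2.99 ± 0.26 in Siglec-F int (adjusted p = 0.000176), by limma as for all adjusted p here. Thrombospondin-1 (Thbs1; ENSMUSG00000040152.8, chromosome 2, 118111876 to 118127133), which activates latent TGF-β and binds the receptor CD47, had 1537, 1075 and 1291 normalized counts in Siglec-F high, 1004, 2197 and 1062 in Siglec-F int and 133, 214 and 282 in naive. The highest of these was Siglec-F int library 2, and no tumour-bearing library overlapped naive. Thbs1 rose by a log2 fold change of 2.68 ± 0.38 in Siglec-F high (adjusted p = 0.0011) and 2.72 ± 0.38 in Siglec-F int (adjusted p = 0.00134).

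Thrombospondin-2 (Thbs2; ENSMUSG00000023885.9, chromosome 17, 14665500 to 14694235), a relative that limits blood vessel growth, had 815, 706 and 859 normalized counts in Siglec-F high, 399, 169 and 509.9 in Siglec-F int and 39, 13 and 112 in naive. Naive was the lowest group without overlap, and the Siglec-F high libraries were all above the Siglec-F int ones. Thbs2 rose by 4.31 ± 0.66 in Siglec-F high (log2, adjusted p = 0.0016) and by 3.03 ± 0.66 in Siglec-F int (adjusted p = 0.00966). Without naive 2 the Thbs2 value was 3.56 in Siglec-F high and 2.28 in Siglec-F int, and without naive 3 it was 5.06 and 3.78. Thbs3 was low, at 18.3 ± 13.9 normalized counts in Siglec-F high, 20.7 ± 9.21 in Siglec-F int and 3.58 ± 1.97 in naive (SD, n = 3 each), and did not pass limma's test (adjusted p = 0.19 and 0.107). It had 2.19 normalized counts in Siglec-F high library 1 but 26.2 and 26.4 in the other Siglec-F high libraries. Without Siglec-F high 1 and Siglec-F int 2 it passed, at log2 fold changes of 2.66 (adjusted p = 0.0165) in Siglec-F high and 2.62 (adjusted p = 0.0156) in Siglec-F int. Leaving out Siglec-F high 1 alone gave an adjusted p of 0.0171 and 0.0177.

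Matricellular glycoproteins, which sit in the matrix and act on cells more than they bear load, included the rises of Postn and Spp1. Of 7 tested, 5 rose in Siglec-F high (14.7% of all genes) and 4 in Siglec-F int (12%), and none fell (16.6% and 10.3%). Osteopontin (Spp1; ENSMUSG00000029304.14, chromosome 5, 104435118 to 104441050), a phosphoprotein of bone and of activated macrophages that binds integrins and CD44, had 22006, 6971 and 8763 normalized counts in Siglec-F high, 7198, 5836 and 6687 in Siglec-F int and 167, 565 and 319 in naive. Siglec-F high library 1 was far above the rest, and the lowest tumour-bearing library was still above the highest naive one. Spp1 rose by 5.14 ± 0.49 in Siglec-F high (log2, adjusted p = 0.000219) and 4.39 ± 0.49 in Siglec-F int (adjusted p = 0.000529). Bone and cartilage genes gave mixed values beside it. Sox9 and Runx2, transcription factors of cartilage and bone, rose in both comparisons (Sox9 by 4.24 in Siglec-F high and 3.73 in Siglec-F int). The bone gene Ibsp rose in Siglec-F int (5.10, adjusted p = 0.0141) and did not pass in Siglec-F high (2.86, adjusted p = 0.0918). The cartilage gene Chad fell in Siglec-F high (−3.73, adjusted p = 0.00977) and did not pass in Siglec-F int (−1.02, adjusted p = 0.412). Acan, Comp, Matn3 and Bglap were too low to test, and Sp7, a factor of bone-forming cells, was at 0 in all 9 libraries. Whether such cells had a part in the Spp1 level was not tested.

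Periostin (Postn; ENSMUSG00000027750.16, chromosome 3, 54361109 to 54391037), which TGF-β induces in fibroblasts and which helps crosslink collagen, had 1972, 691 and 903 normalized counts in Siglec-F high, 768, 217 and 625 in Siglec-F int and 19.5, 33.9 and 20.1 in naive. Its spread among the tumour-bearing libraries was wide, with Siglec-F high library 1 highest and Siglec-F int library 2 lowest, yet both groups were clear of naive. The log2 fold change of Postn was 5.44 ± 0.53 in Siglec-F high (adjusted p = 0.000247) and 4.26 ± 0.53 in Siglec-F int (adjusted p = 0.000834). With the GC and length trend removed it was 3.56 (adjusted p = 0.000214) and 2.87 (adjusted p = 0.000796). Tenascin-C (Tnc; ENSMUSG00000028364.15, chromosome 4, 63959785 to 64047015), a hexameric glycoprotein of wounds and tumour stroma, had 216, 146 and 162 normalized counts in Siglec-F high, 112, 103 and 66.7 in Siglec-F int and 2.29, 23.4 and 13.4 in naive. The groups did not overlap, and Siglec-F high was the highest. Tnc rose by 4.05 ± 0.67 in Siglec-F high (log2, adjusted p = 0.00221) and 3.14 ± 0.67 in Siglec-F int (adjusted p = 0.00861). Without naive 1, its lowest library, the values were 3.21 and 2.30, and without naive 2 they were 4.66 and 3.75.

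The TGF-β-induced protein (Tgfbi; ENSMUSG00000035493.10, chromosome 13, 56609523 to 56639562), an integrin ligand made by macrophages and fibroblasts, had 1625, 1591 and 1532 normalized counts in Siglec-F high, 1714, 5499.8 and 1887 in Siglec-F int and 226, 359 and 276 in naive. It was close to constant in Siglec-F high, and Siglec-F int library 2, the one rich in macrophage markers, stood about 3 times above its partners. Tgfbi rose by 2.48 ± 0.41 in Siglec-F high (log2, adjusted p = 0.00228) and 3.21 ± 0.41 in Siglec-F int (adjusted p = 0.000935). Matrix Gla protein (Mgp; ENSMUSG00000030218.2, chromosome 6, 136872435 to 136875823), an inhibitor of calcification, averaged 11181 ± 2226 normalized counts in Siglec-F high, 8579 ± 3288 in Siglec-F int and 4040.1 ± 219.8 in naive (SD, n = 3 each). It rose in Siglec-F high (1.45 ± 0.34, adjusted p = 0.0115) and did not pass in Siglec-F int (1.00 ± 0.34, adjusted p = 0.059), where its libraries were still all above naive. The Siglec-F int value passed in 8 alternatives (adjusted p = 0.00119 to 0.0326), among them TMM factors, quantile normalization, edgeR, DESeq2, the GC trend removed and Siglec-F high 1 or Siglec-F int 2 left out.

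The collagen-binding protein Sparc and its relative Sparcl1 were expressed in every library but did not pass limma's test. Sparc averaged 8058 ± 392 normalized counts in Siglec-F high, 5667 ± 2201 in Siglec-F int and 5040.3 ± 198 in naive, with log2 fold changes of 0.68 ± 0.33 (adjusted p = 0.132) and 0.08 ± 0.33 (adjusted p = 0.883). In Siglec-F high, Sparc passed without Siglec-F int 2 (adjusted p = 0.0386), without both Siglec-F high 1 and Siglec-F int 2 (adjusted p = 0.0234) and with the GC trend removed (1.5, adjusted p = 0.0141). Sparcl1 averaged 1149.6 ± 237 in Siglec-F high, 847 ± 303 in Siglec-F int and 809.7 ± 218 in naive. Tnxb, a tenascin of loose connective tissue, had 6 reads in all Siglec-F high libraries together, 2 in Siglec-F int and 2 in naive, too few to compare.

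**Figure D3:**
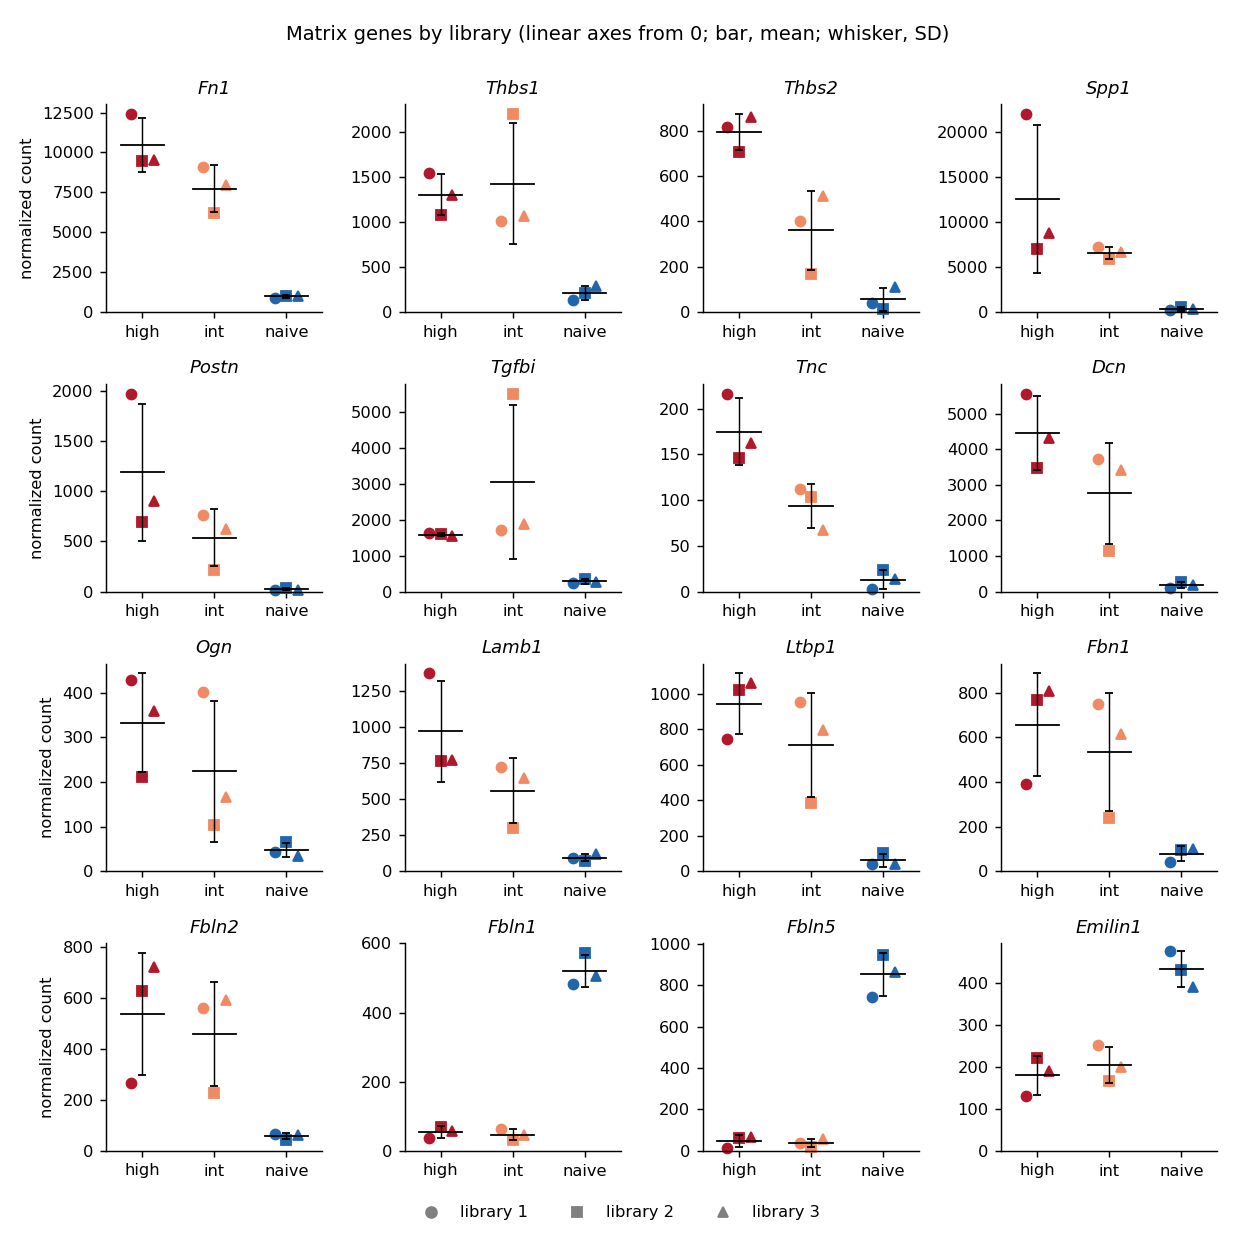
Normalized counts (y axes, linear from 0, each panel with its own scale) of 16 matrix genes in each library of Siglec-F high, Siglec-F int and naive; the bar is the mean of 3 libraries, the whisker the SD, and the symbol the library number. The 13 genes from Fn1 to Fbln2 had every tumour-bearing library above naive, and the 3 genes Fbln1, Fbln5 and Emilin1 had naive above every tumour-bearing library.

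Among the 6 proteoglycans tested, decorin and osteoglycin rose in both groups (14.7% and 12% of all genes). The other 4 did not pass limma's test. Decorin (Dcn; ENSMUSG00000019929.16, chromosome 10, 97479609 to 97518143), which binds collagen fibrils and TGF-β, had 5562, 3476 and 4332 normalized counts in Siglec-F high, 3721, 1129 and 3424 in Siglec-F int and 104, 281 and 185 in naive. Siglec-F int library 2 was the lowest of the tumour-bearing libraries and was still above naive. Dcn rose by 4.63 ± 0.49 in Siglec-F high (log2, adjusted p = 0.000308) and 3.78 ± 0.49 in Siglec-F int (adjusted p = 0.000943). With the GC trend removed the values were 2.96 (adjusted p = 0.0011) and 2.56 (adjusted p = 0.00284). Osteoglycin (Ogn; ENSMUSG00000021390.6, chromosome 13, 49608046 to 49624501), another small leucine-rich protein, had 429, 211 and 359.9 normalized counts in Siglec-F high, 403, 103 and 167 in Siglec-F int and 43.6, 65.1 and 35.1 in naive. No tumour-bearing library reached down into the naive range. Ogn rose by 2.76 ± 0.51 in Siglec-F high (log2, adjusted p = 0.00398) and 2.02 ± 0.51 in Siglec-F int (adjusted p = 0.0191). The Ogn call in Siglec-F int was lost without any one of Siglec-F int 1, Siglec-F int 3, naive 1 or naive 3 (adjusted p = 0.0563 to 0.0803) and with the GC trend removed (adjusted p = 0.12). That removal gave 1.41 in Siglec-F high (adjusted p = 0.041).

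Lumican (Lum), the neighbour of Dcn on chromosome 10 with 46984 bases between them on the same strand, was scarce at 23.7 ± 10.7 normalized counts in Siglec-F high, 27 ± 5.76 in Siglec-F int and 9.04 ± 5.25 in naive. It did not pass the test (adjusted p = 0.137 and 0.0998). Biglycan (Bgn), which like decorin carries glycosaminoglycan chains, averaged 485 ± 298 in Siglec-F high, 475 ± 138 in Siglec-F int and 345 ± 88.4 in naive. Its value in Siglec-F high library 1, 145 normalized counts, was far under the 696 and 614 of the other Siglec-F high libraries, and the log2 fold changes were 0.23 ± 0.55 (adjusted p = 0.764) and 0.45 ± 0.55 (adjusted p = 0.584). Without Siglec-F high 1 the Siglec-F high value was 0.95 and passed (adjusted p = 0.0483). Prelp, a collagen and heparan sulphate binder, averaged 292 ± 61.9 in Siglec-F high, 217 ± 48.2 in Siglec-F int and 231 ± 52.1 in naive, and passed only in Siglec-F high with the GC trend removed (1.14, adjusted p = 0.0337). Versican (Vcan), the large hyaluronan-binding proteoglycan, stayed under 40 normalized counts in every library (adjusted p = 0.145 and 0.37). Without naive 2 it passed in Siglec-F high (3.17, adjusted p = 0.0491). Fmod, a neighbour of Prelp, had 1 read over the Siglec-F high libraries and 5 over Siglec-F int, against 14 over naive. Per depth this is a Siglec-F high to naive ratio of 0.0466 (95% counting interval 0.0011 to 0.306), and the interval covers counting error only.

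Among basement membrane genes the laminin β1 and γ1 chains rose, while the laminin α chains and perlecan did not pass limma's test. Of 7 tested, 3 rose in Siglec-F high (14.7% of all genes) and 2 in Siglec-F int (12%), and none fell (16.6% and 10.3%). Laminin β1 (Lamb1; ENSMUSG00000002900.16, chromosome 12, 31265234 to 31329644) had 1373, 765 and 770.2 normalized counts in Siglec-F high, 723, 302 and 648 in Siglec-F int and 90.6, 70.3 and 118 in naive. The groups did not overlap, and Siglec-F high was the highest. Lamb1 rose by 3.34 ± 0.40 in Siglec-F high (log2, adjusted p = 0.000504) and 2.51 ± 0.40 in Siglec-F int (adjusted p = 0.00244). Laminin γ1 (Lamc1; ENSMUSG00000026478.14, chromosome 1, 153218922 to 153332786), the chain shared by most laminin trimers, had 622, 798 and 1179 normalized counts in Siglec-F high, 696, 475 and 672 in Siglec-F int and 303, 195 and 232 in naive. Both tumour-bearing groups were above naive in every library and overlapped each other. Lamc1 rose by 1.80 ± 0.32 in Siglec-F high (log2, adjusted p = 0.00341) and 1.33 ± 0.32 in Siglec-F int (adjusted p = 0.0159), the second call being lost without Siglec-F int 1 or Siglec-F int 3 (adjusted p = 0.07 and 0.0696).

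Nidogen-1 (Nid1; ENSMUSG00000005397.8, chromosome 13, 13437551 to 13512269), the link between laminin and collagen IV, had 347, 301 and 427 normalized counts in Siglec-F high, 293, 132 and 304 in Siglec-F int and 91.8, 119.8 and 119 in naive. Naive was lowest, and Siglec-F int library 2 came close to it. Nid1 rose in Siglec-F high by 1.69 ± 0.38 (log2, adjusted p = 0.00889) and missed the threshold in Siglec-F int (1.05 ± 0.38, adjusted p = 0.0674). The Siglec-F int value passed in 6 alternatives (adjusted p = 0.00469 to 0.0378), namely TMM factors, edgeR, DESeq2 and Siglec-F high 1, Siglec-F int 2 or both left out. Nid2 was scarce, at 3.69 ± 2.74 in Siglec-F high, 7.12 ± 3.00 in Siglec-F int and 12 ± 10.5 in naive. Of the α chains, Lama4, of vessel and muscle laminins, averaged 117 ± 69.8 in Siglec-F high, 114 ± 58.2 in Siglec-F int and 87.3 ± 25.1 in naive, and Lama2 stayed under 44 in every library. Lama2 passed only in Siglec-F int without naive 3 (3.38, adjusted p = 0.0427). Perlecan (Hspg2), the heparan sulphate proteoglycan of basement membranes, averaged 160.0 ± 110.1 in Siglec-F high, 144 ± 47.9 in Siglec-F int and 71.2 ± 14.2 in naive (adjusted p = 0.332 and 0.29). Without Siglec-F high 1 and Siglec-F int 2 it passed, at 1.62 in Siglec-F high (adjusted p = 0.00685) and 1.25 in Siglec-F int (adjusted p = 0.016). It also passed in both without Siglec-F high 1 alone (adjusted p = 0.0117 and 0.0457), and in Siglec-F high with the GC trend removed (adjusted p = 0.031).

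The elastic fibre and microfibril genes moved in both directions. Of 13 tested, 3 rose in Siglec-F high (14.7% of all genes) and 4 in Siglec-F int (12%). The same 3 genes fell in both (16.6% and 10.3%). In Siglec-F high these counts lie near the shares of all genes and are not read as a trait of the group. The latent TGF-β binding protein 1 (Ltbp1; ENSMUSG00000001870.15, chromosome 17, 75005568 to 75392512), which ties latent TGF-β to microfibrils, had 748, 1024 and 1063 normalized counts in Siglec-F high, 956, 385 and 798 in Siglec-F int and 37.9, 104 and 41.8 in naive. Its naive libraries lay far under all others. Ltbp1 rose by 4.06 ± 0.46 in Siglec-F high (log2, adjusted p = 0.000367) and 3.57 ± 0.46 in Siglec-F int (adjusted p = 0.000895). Fibrillin-1 (Fbn1; ENSMUSG00000027204.13, chromosome 2, 125300594 to 125507993), the backbone of microfibrils, had 389, 768 and 809 normalized counts in Siglec-F high, 747, 237 and 614 in Siglec-F int and 42.4, 96.4 and 98.6 in naive. Siglec-F high 1 and Siglec-F int 2 were the low libraries of their groups and did not reach naive. Fbn1 rose by 3.06 ± 0.51 in Siglec-F high (log2, adjusted p = 0.00228) and 2.67 ± 0.51 in Siglec-F int (adjusted p = 0.00536).

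Fibulin-2 (Fbln2; ENSMUSG00000064080.12, chromosome 6, 91212455 to 91272540) had 267, 628 and 721 normalized counts in Siglec-F high, 560.4, 226 and 591 in Siglec-F int and 67.7, 44.3 and 61.8 in naive, with the same low libraries as Fbn1. By limma, Fbln2 rose by 3.09 ± 0.48 in Siglec-F high (log2, adjusted p = 0.00169) and 2.86 ± 0.48 in Siglec-F int (adjusted p = 0.00285). Ltbp2, a fibrillin-binding relative of Ltbp1 that does not bind latent TGF-β, averaged 89.1 ± 73.6 in Siglec-F high, 108 ± 52.8 in Siglec-F int and 15.7 ± 5.69 in naive. It rose in Siglec-F int (2.60 ± 0.75, adjusted p = 0.0304) and missed the threshold in Siglec-F high (2.05 ± 0.75, adjusted p = 0.0569). The Siglec-F int call was lost without any one of Siglec-F int 1, Siglec-F int 3 or the naive libraries (adjusted p = 0.053 to 0.12). It was also lost with no filter on low values (adjusted p = 0.054). The Siglec-F high value passed in 7 alternatives (adjusted p = 0.00347 to 0.0468), namely TMM factors, quantile normalization, edgeR, DESeq2, the GC trend removed, and Siglec-F high 1 left out with or without Siglec-F int 2.

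The falls were deepest in fibulin-5 and fibulin-1. Fibulin-5 (Fbln5; ENSMUSG00000021186.9, chromosome 12, 101746565 to 101819055), which elastic fibre assembly needs, had 15.4, 61.5 and 67.4 normalized counts in Siglec-F high and 36, 18.1 and 56.3 in Siglec-F int, against 743, 948 and 866 in naive. Every naive library was more than 10 times above every tumour-bearing one. Fbln5 fell by a log2 fold change of −4.37 (SE 0.59, adjusted p = 0.000835) in Siglec-F high and −4.63 (SE 0.59, adjusted p = 0.000859) in Siglec-F int. In Siglec-F high it was −3.70 without library 1, the lowest, and −5.13 with the GC trend removed. Fibulin-1 (Fbln1; ENSMUSG00000006369.14, chromosome 15, 85205949 to 85286535), a fibronectin and laminin binder, had 36.2, 70.4 and 57.1 in Siglec-F high and 62.8, 31.6 and 46.5 in Siglec-F int, against 484, 573 and 505 in naive. The gap to naive was again wider than the range within any group. Its log2 fold changes were −3.28 ± 0.39 in Siglec-F high (adjusted p = 0.000492) and −3.49 ± 0.39 in Siglec-F int (adjusted p = 0.000535). With the GC trend removed the Siglec-F high value was −2.38 (adjusted p = 0.00103). The pigment cell markers fell with both fibulins, and their part in the difference was not tested.

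Emilin1 (ENSMUSG00000029163.9, chromosome 5, 30913402 to 30921277), a glycoprotein at the surface of elastic fibres, had 129, 221 and 190.2 normalized counts in Siglec-F high and 251, 166 and 199 in Siglec-F int, against 476, 429.8 and 390.1 in naive. Naive was higher without overlap, by a smaller margin than for the fibulins. The log2 fold changes were −1.29 ± 0.31 in Siglec-F high (adjusted p = 0.0131) and −1.09 ± 0.31 in Siglec-F int (adjusted p = 0.0321). With the trend over GC content and length removed, the Siglec-F high value was 0.11 (adjusted p = 0.858) and the Siglec-F int value −0.38 (adjusted p = 0.531). The Siglec-F int call was lost in 14 alternatives in all. It was lost without any one of 7 libraries, namely Siglec-F high 3 and each Siglec-F int or naive library (adjusted p = 0.0502 to 0.106). TMM factors, equal totals, quantile normalization and edgeR also lost it (adjusted p = 0.0698, 0.149, 0.0667 and 0.0836). So did the fits with no variance trend or no filter on low values (adjusted p = 0.0639 and 0.0556). At 61.1% GC, Emilin1 was the member richest in GC.

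Elastin itself (Eln), the rubber-like core of the fibre, averaged 3235 ± 829 normalized counts in Siglec-F high, 3084 ± 1048 in Siglec-F int and 1877 ± 491 in naive. Its log2 fold changes of 0.79 ± 0.36 (adjusted p = 0.113) and 0.69 ± 0.36 (adjusted p = 0.192) did not pass by limma. They passed with the GC trend removed, at 2.0 in Siglec-F high (adjusted p = 0.00347) and 1.31 in Siglec-F int (adjusted p = 0.0305), and without Siglec-F high 1 and Siglec-F int 2 together (adjusted p = 0.017 and 0.0157). The microfibril genes Mfap2, Mfap4 and Mfap5 and the fibulin relatives Efemp1 and Efemp2 did not pass limma's test either. Mfap2 was listed at 0 in Siglec-F high library 1, against 128 and 45.2 in the other Siglec-F high libraries, and Efemp2 was also at 0 there, against 69.2 and 29.9. Mfap4 averaged 110.2 ± 70.2 in Siglec-F high, 132 ± 15.3 in Siglec-F int and 236 ± 45.6 in naive, below naive in every tumour-bearing library (adjusted p = 0.0776 and 0.309). It passed in Siglec-F high without Siglec-F high 2 (adjusted p = 0.0291), and in Siglec-F int in 3 alternatives (adjusted p = 0.0278 to 0.0387), namely only both groups compared, and Siglec-F high 1 left out with or without Siglec-F int 2. Mfap5 averaged 318 ± 130.2 in Siglec-F high, 234 ± 24.5 in Siglec-F int and 304 ± 32 in naive, and Efemp1 stayed under 44 throughout.

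Of the 4 enzymes and cofactors that crosslink collagen and elastin or process procollagen, Lox and Pcolce rose in Siglec-F high (14.7% of all genes). By limma none passed in Siglec-F int, where edgeR called Lox and DESeq2 called Lox and Loxl2. Lysyl oxidase (Lox; ENSMUSG00000024529.13, chromosome 18, 52516067 to 52529867) had 287, 105 and 166 normalized counts in Siglec-F high, 152, 60.2 and 132 in Siglec-F int and 41.3, 41.7 and 47.6 in naive. All tumour-bearing libraries were above naive, and Siglec-F high library 1 was highest. Lox rose by 1.96 ± 0.48 in Siglec-F high (log2, adjusted p = 0.0134), a call lost with the GC trend removed (0.95, adjusted p = 0.0926), and was 1.28 ± 0.48 in Siglec-F int (adjusted p = 0.0804). The Siglec-F int value passed in 7 alternatives (adjusted p = 0.00692 to 0.0493), among them TMM factors (adjusted p = 0.0493), edgeR (adjusted p = 0.0391), DESeq2 (adjusted p = 0.0224) and Siglec-F high 1 or Siglec-F int 2 left out. Pcolce (ENSMUSG00000029718.14, chromosome 5, 137605103 to 137613784), a cofactor of the procollagen C-proteinase Bmp1, had 673, 936 and 556 in Siglec-F high, 515, 247 and 521 in Siglec-F int and 255, 412 and 305 in naive. Siglec-F high was above both other groups, and Siglec-F int overlapped naive. The Pcolce log2 fold change was 1.15 ± 0.37 in Siglec-F high (adjusted p = 0.0373) and 0.35 ± 0.37 in Siglec-F int (adjusted p = 0.522). The first call was lost without any one of Siglec-F high 2, Siglec-F int 1, Siglec-F int 3, naive 1 or naive 3 (adjusted p = 0.0516 to 0.113), and with the replicate number as a block (adjusted p = 0.0549). Fits with no filter on low values or no variance trend also lost it (adjusted p = 0.0686 and 0.0759). With the GC trend removed the value was 2.22 (adjusted p = 0.00312).

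The lysyl oxidase relatives Loxl1 and Loxl2 did not pass limma's test. Loxl1, the oxidase of elastic fibres, averaged 92.8 ± 76.6 normalized counts in Siglec-F high, 77.8 ± 28.7 in Siglec-F int and 119 ± 20.4 in naive, with 5.48 in Siglec-F high library 1 against 149 and 125 in its partners. Its log2 fold changes of −1.26 ± 0.98 and −0.66 ± 0.98 (adjusted p = 0.337 and 0.656) turned to 0.22 and 0.12 with the GC trend removed. Loxl2, which crosslinks basement membrane collagen IV, had 457, 174 and 112 in Siglec-F high and 101, 107 and 148 in Siglec-F int, against 467, 260.5 and 254 in naive. Siglec-F int was below naive without overlap and Siglec-F high overlapped it. The Loxl2 log2 fold change was −0.60 ± 0.50 in Siglec-F high (adjusted p = 0.365) and −1.42 ± 0.50 in Siglec-F int (adjusted p = 0.0626). The Siglec-F int value passed by DESeq2 (adjusted p = 0.0435), with only both groups compared (adjusted p = 0.0111), without Siglec-F high 1 (adjusted p = 0.00797) and without Siglec-F high 1 and Siglec-F int 2 together (adjusted p = 0.0234). The Siglec-F high value passed without Siglec-F high 1 (−1.17, adjusted p = 0.0358) and without both (adjusted p = 0.0429).

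No matrix gene differed between Siglec-F high and Siglec-F int libraries by limma at an adjusted p under 0.05, and neither did any of the 13642 genes (0% called). At an unadjusted p under 0.05, 1 of the 41 passed, against 4.33% of all genes. This gene was Postn, at a Siglec-F high minus Siglec-F int log2 difference of 1.18 (95% confidence interval 0.01 to 2.36) and an unadjusted p of 0.0488 by limma. edgeR and DESeq2 on the recovered reads also called 0 of the 41, with 2 and 3 at an unadjusted p under 0.05. The log2 differences ran from −1.78 (Mfap2) to 1.28 (Thbs2), with a median of 0.36, against −0.08 for all genes, and the lowest adjusted p was 0.797.

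Without overlap, 6 of 41 genes lay higher in Siglec-F high (5.52% of all genes), namely Fn1, Thbs2, Sparc, Tnc, Lamb1 and Pcolce, and Tgfbi lay lower (5.75%). The intervals were wide. The log2 difference, Siglec-F high minus Siglec-F int, was 0.44 (95% confidence interval −0.13 to 1.01) for Fn1 and 1.28 (95% confidence interval −0.18 to 2.74) for Thbs2. It was 0.85 (95% confidence interval −0.23 to 1.93) for Dcn and 0.75 (95% confidence interval −0.33 to 1.84) for Spp1. These intervals do not show that the Siglec-F groups are alike. The 12 macrophage and monocyte markers summed to 14029 to 22242 in Siglec-F high against 18641 to 75068 in Siglec-F int, and their part in the differences was not tested.

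Siglec-F int library 2 held less of most matrix genes than its partners. It was the lowest of the 6 tumour-bearing libraries in 20 of the 41 genes, and in 18% of all genes tested. It lay below both other Siglec-F int libraries in 32 of 41, against 38.8% of all genes, with a median log2 difference to their mean of −0.87, against 0.01 over all genes. The most reduced were Postn, Dcn, Lama4, Ltbp2 and Fbn1. In 5 of the 41, namely Thbs1, Tgfbi, Efemp1, Mfap4 and Mfap5, it lay above both other Siglec-F int libraries. The difference was largest in Tgfbi and Thbs1 (log2 1.61 and 1.09), and in both library 2 was the highest of the 6. The 6 leukocyte markers summed to 30657 in it against 9059 and 10233 in its partners. The 14 fibroblast markers, collagens among them, summed to 10471 against 21542 and 18014. The part of these cells in the pattern was not tested.

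**Figure D4:**
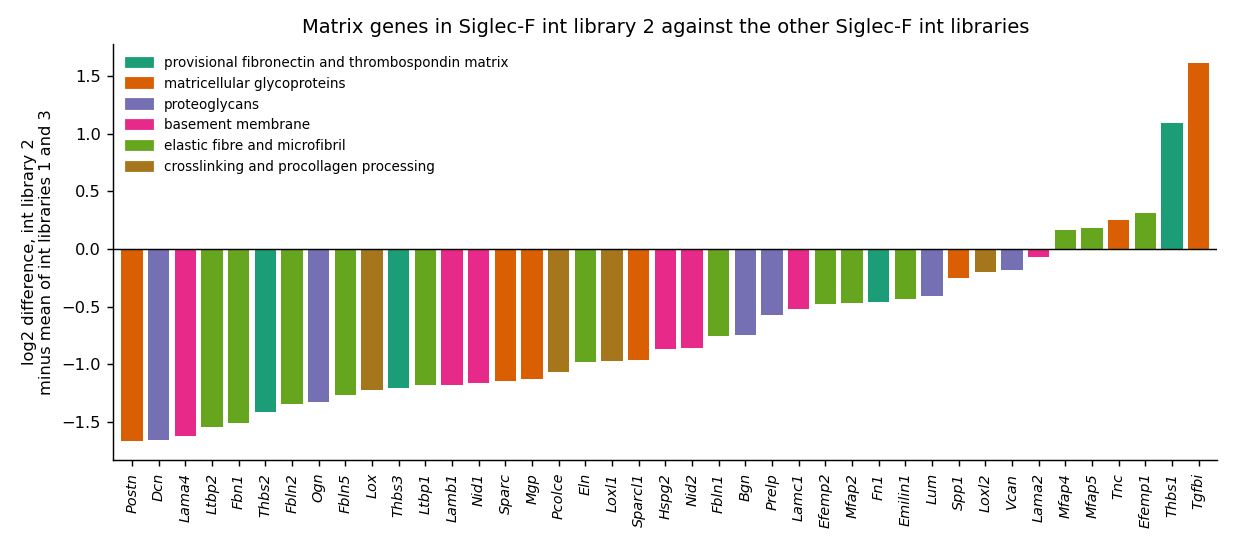
Log2 difference (y axis) between Siglec-F int library 2 and the mean log2 level of Siglec-F int libraries 1 and 3 for each of the 41 tested matrix genes, coloured by role and sorted. Most bars are below 0, and the bars of Tgfbi and Thbs1 stand above 1.

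Siglec-F high library 1 divided the matrix genes by their GC content. It was the lowest of the 6 tumour-bearing libraries in 13 of the 41 genes and the highest in 14, against 40.7% and 33% of all genes. Across the 41 genes, its log2 difference to the other Siglec-F high libraries fell with the GC content of the longest transcript (Pearson −0.59, Spearman −0.68). This is a description across genes of 1 library, which are not independent, and over all 13639 genes with a GC value the Pearson correlation was −0.47. The median log2 difference was −2.41 in the 7 genes of at least 55% GC and 0.92 in the 8 genes under 45%. Postn, Ogn and Dcn, at 36.3% to 37.4% GC, were among those it raised, and Mfap2, Loxl1 and Hspg2, at 59.6% GC or more, among those it lowered. With the GC and length trend removed from all libraries, 24 genes were called in Siglec-F high (22 higher, 2 lower) and 19 in Siglec-F int (17 higher, 2 lower). The share of all genes called under that removal is not given here, so these counts carry no weight as support. In Siglec-F high the removal also moved Tgfbi to 3.30, Fbln2 to 3.95 and Spp1 to 4.50, all still called.

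**Figure D5:**
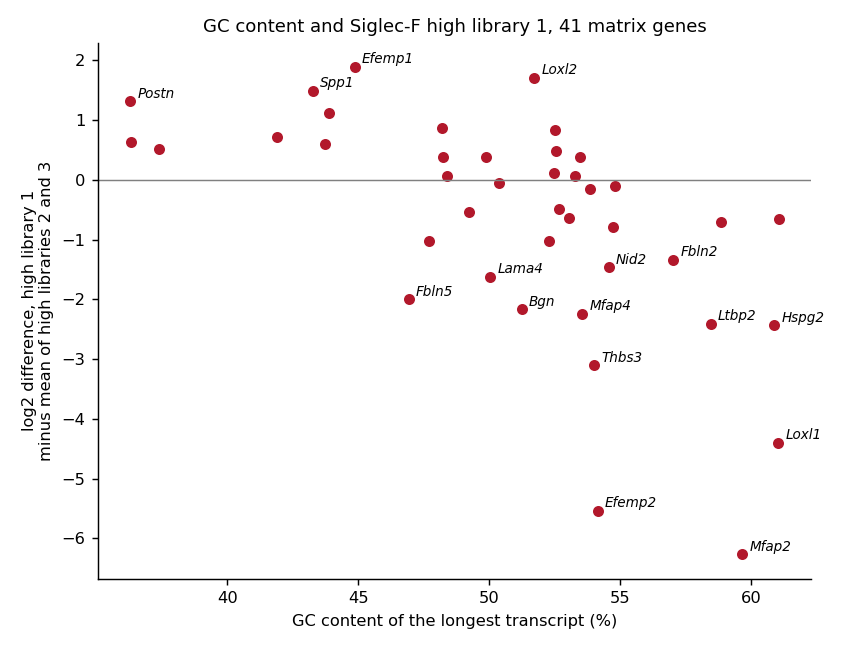
Log2 difference (y axis) between Siglec-F high library 1 and the mean log2 level of Siglec-F high libraries 2 and 3 against the GC content of the longest transcript (x axis, %), 1 point for each of the 41 tested matrix genes. Genes of at least 55% GC had a median of −2.41 and genes under 45% a median of 0.92.

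Of 94 other matrix genes, 69 were tested by limma: 18 rose (14.7% of all genes) and 6 fell (16.6%) in Siglec-F high, and 16 rose (12%) and 2 fell (10.3%) in Siglec-F int. The 18 called in Siglec-F int became 8 without Siglec-F int 1, 9 without Siglec-F int 3 or naive 1, and 27 without Siglec-F high 1. For those fits the share of all genes called is not given here. None of the 69 was called between the Siglec-F groups, where 4 had an unadjusted p under 0.05. Their median log2 fold change was 0.86 in Siglec-F high and 0.83 in Siglec-F int. The largest rise was that of Wisp1, a secreted matricellular protein of the CCN family, with 598, 322 and 456 normalized counts in Siglec-F high, 322, 177 and 425 in Siglec-F int and 3.44, 10.4 and 19.2 in naive. It rose by 5.47 ± 0.57 in Siglec-F high (log2, adjusted p = 0.000282) and 4.85 ± 0.57 in Siglec-F int (adjusted p = 0.000656). Edil3, an integrin ligand, rose by 4.28 in Siglec-F high and 3.30 in Siglec-F int (adjusted p = 0.00171 and 0.00688). The small leucine-rich proteins asporin (Aspn, 5.12 and 4.60) and osteomodulin (Omd, 3.79 and 3.60) and the adaptor matrilin-2 (Matn2, 3.68 and 2.99) also rose in both, with adjusted p up to 0.00642.

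Tinagl1, a basement membrane protein, was the clearest fall of that list, at 212 ± 55.9 normalized counts in Siglec-F high and 224 ± 75.9 in Siglec-F int, against 1990.3 ± 234 in naive (SD, n = 3 each). Its log2 fold changes were −3.25 ± 0.34 (adjusted p = 0.000282) and −3.20 ± 0.34 (adjusted p = 0.00042). The collagen lysyl hydroxylase Plod1 fell in Siglec-F high (−2.24, adjusted p = 0.00883) and was −1.45 in Siglec-F int (adjusted p = 0.059). Papln fell by a log2 fold change of −3.58 in Siglec-F high (adjusted p = 0.0306) and −3.58 in Siglec-F int (adjusted p = 0.0386). Chondroadherin (Chad), a cartilage protein, had 0 reads over the Siglec-F high libraries and 29 over naive, at least 14.8-fold lower per depth when 3 reads over the group are taken for the 0.

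Of 24 tested genes in a list of matrix and growth factor receptors, 13 rose (14.7% of all genes) and 1 fell (16.6%) in Siglec-F high. In Siglec-F int 12 rose (12%) and 2 fell (10.3%). The laminin receptor subunit Itga6 averaged 442 ± 23 normalized counts in Siglec-F high, 358 ± 20.5 in Siglec-F int and 43 ± 23.6 in naive, a rise of 3.46 ± 0.37 and 3.15 ± 0.37 (log2, adjusted p = 0.000315 and 0.000692). The heparan sulphate proteoglycan Sdc2 rose by 4.04 in Siglec-F high and 3.40 in Siglec-F int (adjusted p = 0.00047 and 0.00137). The thrombospondin receptor Cd47 rose by 1.82 and 1.95 (adjusted p = 0.00225 and 0.00209). The integrin subunit Itgav, a partner in receptors for fibronectin and osteopontin, rose by 1.82 and 1.59 (adjusted p = 0.00276 and 0.00623). The hepatocyte growth factor receptor Met fell to 335 ± 238 in Siglec-F high and 300.4 ± 84.1 in Siglec-F int, against 4505 ± 2138 in naive (adjusted p = 0.000629 and 0.000883). Dystroglycan (Dag1) fell in Siglec-F int (−1.10, adjusted p = 0.0458) and was −0.80 in Siglec-F high (adjusted p = 0.102).

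Of 18 genes that regulate matrix synthesis or release, 9 rose (14.7% of all genes) and 1 fell (16.6%) in Siglec-F high. In Siglec-F int 6 rose (12%) and 1 fell (10.3%). Smad7, the TGF-β-induced inhibitor of TGF-β signalling, rose by 2.95 in Siglec-F high and 2.52 in Siglec-F int (log2, adjusted p = 0.0011 and 0.00284). The mesenchymal transcription factor Twist1 rose by 4.14 and 3.60 (adjusted p = 0.00136 and 0.00323). The YAP pathway genes Tead1 (2.52 in Siglec-F high and 2.0 in Siglec-F int) and Wwtr1 (2.04 and 1.64) and the procollagen C-proteinase Bmp1 (1.84 and 1.95) rose in both, with adjusted p up to 0.03. The TGF-β receptor Tgfbr1 rose by 1.44 and 1.90 (adjusted p = 0.0398 and 0.0169). The serum response factor Srf fell (−2.61 and −1.54, adjusted p = 0.00462 and 0.0494).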

How the data were processed

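RNA of 9 pooled libraries was prepared with Cell-seq protocols per the labels. Per the submitters' processing notes, TopHat2 2.1.0, HTSeq and DESeq2 1.10.0 were used with GRCm38. The deposited values are a signal, normalized counts, which the authors scaled in each library. Dividing by the smallest step gave whole reads for 100% of values up to 2000 reads, within 0.05 read, and so the depth. Whether molecular identifiers were counted is not given in the sources used here, so intervals and bounds cover counting error only.

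From 54670 entries, 63 date-like names (0.219% of the total), 116 entries repeated exactly and 42 repeats of a name with its values were left out, and 215 shared a name or identifier. The tests covered 13642 of 54449 genes, those whose mean reached 5. limma 3.58.1 in R 4.3.3 was fitted to log2(value + 1) of all 9 libraries with a variance trend, two-sided, with Benjamini-Hochberg adjustment over all genes tested and a threshold of 0.05. The script was tested on simulated data. The p-values measure the spread between pools of mice. edgeR 4.0.16 and DESeq2 1.42.0 were run on the recovered reads. Other pseudocounts, filters, scalings and fits, a replicate block and the removal of each library were tried, and the removal of a trend over GC content and length was added after seeing the data.

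The 43 genes, the other lists and the markers were chosen with earlier results of these data known. Values per library are given for up to 3 called genes per direction in each role and comparison with naive (the highest gene where none was called), and values or fold changes for up to 4 per direction of each other list. Gene positions come from the annotation of GRCm38. The planned correlations between genes over libraries are not given, since the libraries fall into separate clusters. Figures were drawn with matplotlib 3.10.9.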

Additional observations from a re-analysis of the deposited data

How the results depend on the processing

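The number of matrix genes called ran from 20 to 28 in Siglec-F high against naive (20 to 26 with a library left out) and from 14 to 26 in Siglec-F int against naive (14 to 25), and was 0 between the Siglec-F groups in every setting. Of the other matrix genes, 16 to 30 were called in Siglec-F high; in Siglec-F int the main count of 18 ran from 8 to 27 with a library left out, and was 8 without Siglec-F int 1 and 9 without Siglec-F int 3 or naive 1, where fewer samples enter the fit. All genes called between the Siglec-F groups numbered 0 by limma and edgeR and 6 by DESeq2. The replicate numbers do not pair the samples by the labels, and same-numbered Siglec-F high and Siglec-F int libraries deviated together only weakly (correlations of 0.123, 0.141 and 0.0718). Each of these correlated best with its own number, a hint from the data and not the design. With the replicate block 20 genes were called in Siglec-F high, 18 in Siglec-F int and 0 between them, and of the other matrix genes 23, 20 and 0. Apart from edgeR and DESeq2, the share of all genes called is not given for these alternatives. The counts and ranges therefore carry no weight as support.

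TMM factors, equal totals and quantile normalization shifted the middle value over all genes, on the log2 scale, by 0.16, 0.13 and 0.12 in Siglec-F high and by 0.18, 0.25 and −0.04 in Siglec-F int, against which the values below are to be read. Of 1876 values of single genes under an alternative, 1724 kept their direction and their side of the threshold, 61 on 19 values newly passed, 36 on 6 values no longer passed and 55 changed sign, 54 of them in genes called in neither fit. The called one was Emilin1 in Siglec-F high, at 0.11 with the GC and length trend removed, where the cause was not tested. Under that removal Lama4 (−0.010), Efemp1 (−0.13), Mfap5 (0.10) and Loxl1 (0.22) in Siglec-F high and Loxl1 (0.12), Prelp (0.43), Efemp2 (0.46) and Mfap2 (0.80) in Siglec-F int also changed sign. In Siglec-F high Mfap5 became 0.16 with TMM factors, 0.12 with equal totals, 0.14 with quantile normalization, 0.23 with edgeR and 0.19 with DESeq2. In Siglec-F int Efemp2 became 0.0062 with TMM factors, 0.069 with equal totals and 0.0011 with edgeR, Efemp1 0.11 and 0.17 with TMM factors and equal totals, and Mfap2 0.0074 with equal totals. Prelp became 0.11, 0.17, 0.061 and 0.093 with TMM factors, equal totals, quantile normalization and edgeR. Without both Siglec-F high 1 and Siglec-F int 2, Efemp1 (−0.36), Mfap2 (0.050), Efemp2 (0.18) and Loxl1 (0.21) in Siglec-F high and Prelp (0.10) in Siglec-F int changed sign. With 1 library left out at a time, uncalled values that changed sign ran in Siglec-F high from −0.18 to 0.95 (Bgn), −0.19 to 0.79 (Lama4), −0.36 to 1.19 (Efemp1), −2.88 to 0.18 (Efemp2), −3.45 to 0.050 (Mfap2), −0.31 to 0.31 (Mfap5) and −2.05 to 0.21 (Loxl1). In Siglec-F int they ran from −0.12 to 0.46 (Sparc), −0.20 to 0.35 (Sparcl1), −0.26 to 0.10 (Prelp), −0.0010 to 2.44 (Vcan), −0.84 to 0.17 (Nid2), −0.048 to 0.79 (Lama4), −0.48 to 0.17 (Efemp1) and −0.37 to 0.062 (Efemp2). Naive library 2, at 2205949 reads, limits what can be seen in scarce genes.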
